A study of Rattus norvegicus with 6 samples.

Results

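BRL-3A is a long-established cell line grown from rat liver, and the account that follows describes its transcriptome in the control libraries of an siRNA experiment. The members were the 3 libraries labelled NC, of 6 in the series, chosen by their label and by no measured value. The other 3 libraries received siRNA against Hnrnpa2b1 and were not analysed here. The labels give the cells as BRL-3A of the Sprague-Dawley strain, the tissue as liver, the age as 48h and the disease state as raised blood triglycerides for every library, controls included. The cells were grown in DMEM with fetal bovine serum, and siRNAs were introduced with lipofectamine for 48 h before the cells were lysed for total RNA. The labels do not spell out NC and do not say whether these cells were given a non-targeting siRNA. All 3 libraries come from 1 line, and nothing says that they were separate cultures, so the spread between them may be technical.

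The liver is built from several kinds of cell, each with its own set of characteristic transcripts. Hepatocytes make albumin, transthyretin and apolipoproteins, run the urea cycle and bile acid synthesis, and are kept in that state by nuclear factors such as HNF4A. Cholangiocytes line the bile ducts, stellate cells store retinoid and turn into matrix-producing myofibroblasts when activated, mesothelial cells cover the organ, and endothelial cells line its vessels. BRL-3A is best known as a source of insulin-like growth factor 2 and of one of its binding proteins, which were purified from its culture medium.

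Expression is given as FPKM, fragments scaled to the length of the gene model and to the library total, so that levels of genes of different length can be set side by side. A gene counts as detected when it reached 1 FPKM in all 3 libraries. The libraries held 14058134, 13374412 and 14751764 counts. Of 30957 gene models, 16043 had a count in at least 1 library and 11103, or 35.9%, were detected. A further 697 reached the threshold in some libraries but not all. Among nuclear gene models with a symbol 53.2% were detected, which is the share to set beside the lists below. The common biological coefficient of variation between the libraries, estimated with edgeR, was 0.0676. Among 7775 genes with a symbol and a mean of at least 5 FPKM, the median coefficient of variation was 5.53%, against 3.77% from counting alone. No 2 libraries agreed within sampling noise, with a chi-square per degree of freedom from 3.38 to 6.0 in the 3 pairs.

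A count of 0 has to be read with care in these files. It allows up to 3 counts, which for a model of 1 kb is 0.203 to 0.224 FPKM, and this covers counting error only. Several genes that every growing cell uses were also listed at 0 in all 3 libraries, among them Myh9, the heavy chain of non-muscle myosin, Rps6 and Rpl8, which are ribosomal proteins, and Hsp90aa1, a chaperone. In the lists of ribosomal proteins, translation factors, the nuclear-encoded respiratory chain, the proteasome, hnRNP and SR proteins, and replication and mitosis, 8 of 300 members were listed at 0, or 2.67%, and 290 were detected. In the cytoskeleton list, which holds Myh9, 3 of 52 were listed at 0, and in the chaperone list, which holds Hsp90aa1, 2 of 32 were. A gene described below as listed at 0 is therefore not shown to be silent.

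The 4 most abundant nuclear genes with a symbol encode proteins of the extracellular matrix. The most abundant nuclear gene with a symbol was Sparc, a collagen-binding matrix glycoprotein on chromosome 10 (ENSRNOG00000012840, 40742400 to 40764185, Rnor_6.0), at 3184, 3212 and 3255 FPKM in NC replicates 1, 2 and 3. Ccdc80, a secreted matrix protein, followed at 2379, 2497 and 2425 FPKM. Biglycan (Bgn), a small leucine-rich proteoglycan, stood at 2189, 2403 and 2244 FPKM. The lowest value of Sparc was above the highest of Ccdc80, whereas the ranges of Ccdc80 and Bgn overlapped. Col1a1, the alpha-1 chain of type I collagen, reached 2051, 2027 and 1993 FPKM, and fibronectin (Fn1) 1882, 2121 and 1826 FPKM. Serpinh1, the chaperone that binds procollagen in the endoplasmic reticulum, was at 1563, 1446 and 1518 FPKM. Other genes with a part in collagen maturation were high as well. P4hb, a subunit of prolyl 4-hydroxylase and a disulfide isomerase, stood at 1099, 1063 and 1061 FPKM, and Lox, which cross-links collagen and elastin, at 1025, 1048 and 1025 FPKM.

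The 30 most abundant nuclear genes with a symbol also included genes of general cell machinery. Tmsb4x, which sequesters actin monomers, averaged 2011 FPKM, Eef1a1, an elongation factor, 1893 FPKM, Actb 1815 FPKM and the luminal calcium-binding chaperone Calr 1810 FPKM. Rpsa averaged 1370 FPKM, Rplp0 1209 FPKM and Fth1, the ferritin heavy chain, 1198 FPKM. Of the 30 genes, 6 belonged to the list of extracellular matrix and its enzymes, 4 to the cytoskeleton, 3 to ribosomal proteins, 2 to translation factors and 2 to chaperones, while none belonged to the hepatocyte list. The order was coarse: of 29 pairs of neighbours in this ranking, 24 had ranges over the 3 libraries that overlapped. The ranking also held genes of metabolism and signalling. Scd2, a stearoyl-CoA desaturase that makes monounsaturated fatty acids, was at 997, 961 and 1033 FPKM, and the chemokine Cxcl1 at 891, 905 and 835 FPKM. Rps27a-ps1 (917 FPKM on average), Potef (896 FPKM) and a second model named Ptma (888 FPKM) may share reads with near-identical genes, so these levels are uncertain.

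**Figure D1:**
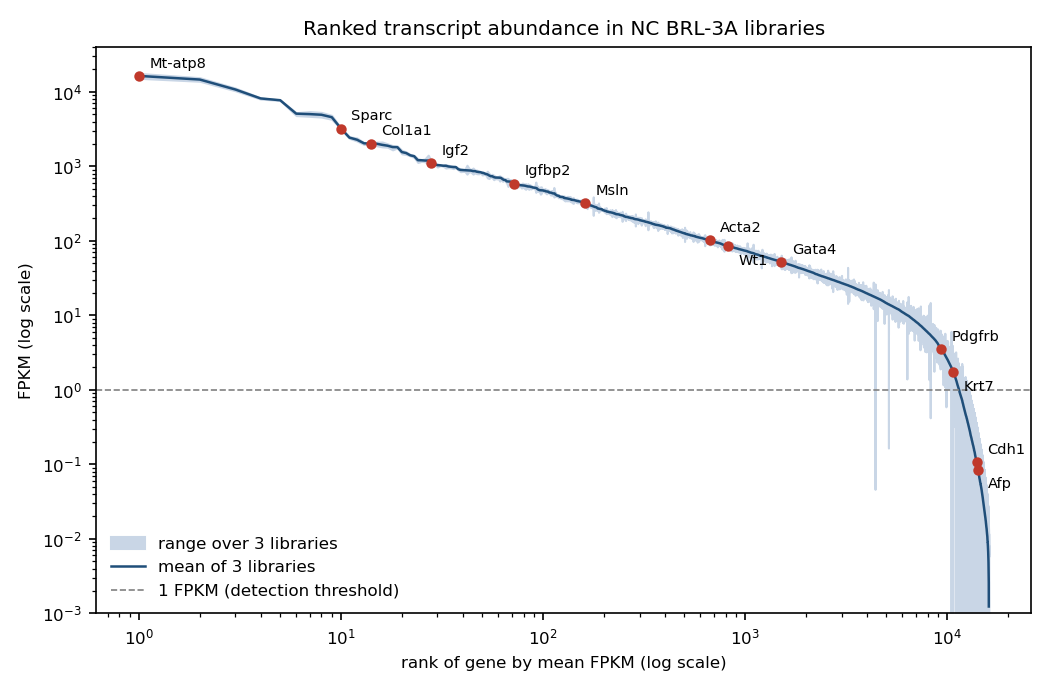
Gene models with a count, ordered by mean FPKM (x axis, rank, log scale) against FPKM (y axis, log scale); the line is the mean of the 3 NC libraries, the band their range, the dashed line 1 FPKM, and red points are named genes. Mt-atp8 leads the curve, Sparc is at rank 10 and Igf2 at rank 28, while Cdh1 and Afp lie below the threshold.

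The sum of FPKM, mitochondrial genes included, was unevenly spread. Genes of 1000 FPKM or more numbered 33 and held 25% of the sum, and another 648 genes between 100 and 1000 FPKM held 32.9%. The 5678 genes between 10 and 100 FPKM held 36.8%, and the 5082 genes between 1 and 10 FPKM held 5.10%. In NC replicates 1, 2 and 3 the number of genes that made up 50% of the sum was 399, 368 and 388, and the 10 most abundant genes took 16.6%, 18.2% and 17.3%. By mean FPKM, 9 of these 10 were mitochondrial, and Sparc was the other. Without mitochondrial genes, 713 genes made up 50% of the sum and the 10 most abundant took 5.50%.

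Of the gene classes counted, the mitochondrial genome was the largest by FPKM. Its 37 models took 17.0%, 18.8% and 17.8% of the FPKM sum in NC replicates 1, 2 and 3, but 6.11%, 6.64% and 6.35% of the counts, since these models are short. All 13 models with a mitochondrial protein symbol were detected, and 9 of the 37 models ranked above every nuclear gene. Mt-atp8 and Mt-atp6, subunits of ATP synthase whose reading frames overlap, stood at 15210, 17680 and 16240 FPKM and at 13870, 15480 and 14540 FPKM. Replicate 2 was highest for both.

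Matrix and ribosomal genes changed places with the scale. The 85 matched genes of the extracellular matrix list took 3.68%, 3.71% and 3.63% of the FPKM sum and 7.78%, 7.95% and 7.65% of the counts. FPKM divides by length, and this list holds long transcripts such as Fn1, the gene with the most counts of all. The 70 matched genes of the ribosomal protein list took 4.32%, 4.02% and 4.25% of the FPKM sum and 1.57%, 1.46% and 1.55% of the counts. With every model described as a ribosomal protein, copies included, the share came to 7.55% of the FPKM sum on average. The cytoskeleton list took 3.04% of the FPKM sum on average, chaperones 1.83%, translation factors 1.74%, hnRNP and SR proteins 0.986% and the nuclear-encoded respiratory chain 0.911%. Hnrnpa2b1, an RNA-binding protein and the gene targeted elsewhere in the series, was the most abundant member of the hnRNP and SR list in these control libraries at 817, 894 and 878 FPKM.

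Sequence just before the start of a few of the abundant genes is shown because it differs in a core promoter element. The TATA box is the element that binds the TATA-binding protein a short way before the start in a minority of genes. The letters TATAAA, searched on the strand of the gene between 40 and 19 bases before the start given by RefSeq (GRCr8), occurred in 1.88% of the 12167 promoters that matched a gene of the table. The share was 4.44% among 2683 genes listed at 0, 0.780% among 2947 genes of 1 to 10 FPKM, 0.673% among 4014 genes of 10 to 100 FPKM and 2.63% among 419 genes of 100 FPKM or more. The 60 bases before the start are printed for 3 of the 30 most abundant genes and the chemokine Ccl7, which hold the letters, in capitals, and for Sparc, which leads the ranking and has no match in that window.
Sparc: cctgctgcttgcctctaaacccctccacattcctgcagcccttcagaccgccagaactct
Calr: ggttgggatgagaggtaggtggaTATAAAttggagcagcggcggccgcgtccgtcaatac
Rplp0: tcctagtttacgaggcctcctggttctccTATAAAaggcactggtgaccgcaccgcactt
Lgals3bp: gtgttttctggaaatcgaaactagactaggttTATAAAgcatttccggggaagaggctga
Ccl7: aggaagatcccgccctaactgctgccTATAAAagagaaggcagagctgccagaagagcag
In GRCr8 these are chr10:40038817-40038876 on the minus strand for Sparc, chr19:40213307-40213366 on the plus strand for Calr and chr12:46718391-46718450 on the minus strand for Rplp0. Lgals3bp is at chr10:104127849-104127908 on the minus strand and Ccl7 at chr10:67514035-67514094 on the plus strand. Among 51 promoters of the chemokine and cytokine list, 6 held the letters, or 11.8%, against none of the 58 promoters of the extracellular matrix list. Most of the 6 were not abundant genes: Ccl7 averaged 65.7 FPKM, Il1a 1.56 FPKM, Ifnb1 0.167 FPKM and Cxcl13 0.127 FPKM, and Ccl6 and Lta were listed at 0.

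Other short elements were searched in the same way. The letters CCAAT, or ATTGG on the same strand, between 150 and 31 bases before the start occurred in 25 of 44 promoters of the replication and mitosis list, or 56.8%, and in 23.0% of all matched promoters. In the matrix list they occurred in 4 of 58, or 6.90%. A start at C followed by 4 bases that are each C or T, the arrangement known from mRNAs of the translation machinery, was found in 17 of 43 ribosomal protein promoters, or 39.5%, and in 2.57% of all. These matches describe letters in fixed windows and are not evidence of binding.

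Of the hepatocyte list, 7 of 42 genes were detected, or 16.7%, against 53.2% of all nuclear gene models with a symbol, and none of its 7 defining markers was. Alb, Ttr, Cps1, Hnf4a, Tat and Serpina1 were listed at 0 in all 3 libraries, and Apoa1 was at 0.640, 0.252 and 0.534 FPKM. The label of the tissue as liver thus goes with a line in which the defining hepatocyte markers were at or near 0. In bulk RNA, fewer cells of a type and less RNA per cell cannot be told apart. The detected members were all enzymes or plasma proteins of moderate level. G6pc, the catalytic subunit of glucose-6-phosphatase (ENSRNOG00000051344, chromosome 10, 89236256 to 89244041, Rnor_6.0), stood at 62.0, 63.0 and 63.0 FPKM. Arg1, the last enzyme of the urea cycle, was at 31.3, 27.6 and 30.1 FPKM, and Fah, the last enzyme of tyrosine breakdown, at 25.6, 20.8 and 24.3 FPKM. Hemopexin (Hpx), transferrin (Tf), Cyp2e1 and haptoglobin (Hp) averaged 9.46, 8.30, 7.15 and 5.65 FPKM.

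The list of hepatoblast and oncofetal genes was split. Igf2 was at 1083, 1014 and 1185 FPKM, and Gpc3, a cell-surface proteoglycan of fetal liver and liver tumours, at 216, 192 and 206 FPKM. The RNA-binding protein Igf2bp3 averaged 25.1 FPKM, Hmga2 8.40 FPKM and Dlk1, a hepatoblast surface marker, 6.91 FPKM. Afp, the fetal counterpart of albumin, was at 0.143, 0.113 and 0.000 FPKM, 7 counts in all. In total 8 of the 12 matched members were detected, or 66.7%, beside 53.2% of all nuclear gene models with a symbol.

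Markers of the duct, the vessels and blood were few. Of 18 biliary genes 3 were detected, or 16.7%, beside 53.2% of all nuclear gene models with a symbol. Krt7 was the only defining biliary marker above the threshold, at 2.23, 1.41 and 1.56 FPKM. Sox9 averaged 0.340 FPKM, Krt19 0.0506 FPKM and Cftr 0.00728 FPKM, and Epcam was listed at 0. The Krt19 model overlaps Krt14, so reads of Krt19 could have been counted there. Of 21 endothelial genes 3 were detected, and the receptor tyrosine kinase genes Tek (5.82, 5.72 and 6.54 FPKM) and Kdr (1.79, 2.33 and 2.08 FPKM) were the defining members among them. Cdh5, the cadherin of endothelial junctions, averaged 0.00915 FPKM, Vwf 0.363 FPKM and Stab2, a marker of liver sinusoids, 0.10 FPKM. Of 21 leukocyte genes, Cd14 and Cd68 were detected, with means of 9.08 and 1.13 FPKM, whereas Ptprc, the pan-leukocyte marker, had 5 counts and the T cell gene Cd3e 1 count in the 3 libraries together. The sum over the 5 defining leukocyte markers lay between 1.05 and 1.5 FPKM.

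The quiescent stellate list and the myofibroblast list differed, with 33.3% and 90.0% detected beside 53.2% of all nuclear gene models with a symbol. Of 18 quiescent stellate genes 6 were detected. Des, an intermediate filament protein, was at 26.1, 25.9 and 28.7 FPKM, and the transcription factor genes Hand2 and Lhx2 averaged 29.2 and 7.72 FPKM. The others were Pcdh7, Ecm1 and Nt5e, and 1 of these reached 100 FPKM in all libraries, the only member of the list to do so. The summed level of the list lay between 223 and 230 FPKM. Lrat, which esterifies retinol for storage, was listed at 0, Reln had 2 counts and Gfap 3 counts in all. Of 20 myofibroblast genes 18 were detected, among them all 5 defining ones. Acta2, smooth muscle actin, was at 97.9, 103 and 106 FPKM, Postn at 70.6, 64.3 and 73.0 FPKM and Col3a1 at 453, 393 and 452 FPKM. Tagln averaged 51.4 FPKM, but its model overlaps Sidt2, so part of its reads could belong there. Pdgfrb, a receptor of activated stellate cells and pericytes, averaged 3.55 FPKM.

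The fibroblast list was mixed. Of 22 genes 10 were detected, or 45.5%, beside 53.2% of all nuclear gene models with a symbol. The highest were elastin (Eln) at 380, 372 and 365 FPKM, Fstl1 at 245, 246 and 245 FPKM and fibrillin-1 (Fbn1) at 126, 116 and 124 FPKM. Of its 5 defining markers, decorin (Dcn) was at 11.9, 11.4 and 10.2 FPKM, lumican (Lum) averaged 0.310 FPKM, Pdgfra 0.175 FPKM, and Col1a2 and Thy1 were listed at 0. Col1a2 encodes the partner chain of Col1a1, which averaged 2024 FPKM. Like other genes listed at 0, Col1a2 is not shown to be silent, and the reason for its 0 was not tested. Of 13 smooth muscle and pericyte genes 5 were detected, with Mcam at 69.4, 62.7 and 75.0 FPKM the highest, and Myh11 averaged 3.56 FPKM and Cspg4 0.0231 FPKM.

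All 4 defining markers of the mesothelial list were well above the threshold. Msln, mesothelin, a surface glycoprotein of the serosal lining (ENSRNOG00000019445, chromosome 10, 15119663 to 15125408, Rnor_6.0), was at 315, 315 and 325 FPKM. Upk3b, a uroplakin of mesothelium, was at 302, 291 and 300.3 FPKM. Lrrn4 stood at 95.1, 96.2 and 104 FPKM and Wt1, the zinc finger factor of the mesothelium, kidney and gonad, at 84.5, 85.1 and 86.1 FPKM. In no library did any of these fall below 84 FPKM, and the summed level of the 4 lay between 787 and 816 FPKM. Of the whole list 10 of 13 were detected, or 76.9%, beside 53.2% of all nuclear gene models with a symbol. They included Pdpn (83.6 FPKM on average), Bnc1 (9.40 FPKM), Upk1b (6.18 FPKM) and Muc16 (1.69 FPKM). Aldh1a2, Gpm6a and Krt19, whose model overlaps Krt14, were each below 0.1 FPKM on average.

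Adhesion and filament genes were of the mesenchymal set, with part of the epithelial set beside it. All 15 mesenchymal genes matched were detected. Vimentin (Vim) was at 733, 685 and 698 FPKM, N-cadherin (Cdh2) at 58.4, 66.0 and 56.5 FPKM and Cdh11 at 66.8, 59.98 and 69.2 FPKM. E-cadherin (Cdh1) averaged 0.106 FPKM, and Epcam was listed at 0. Among 26 epithelial genes 10 were detected, or 38.5%, beside 53.2% of all nuclear gene models with a symbol. They included P-cadherin (Cdh3) at 79.5, 72.2 and 86.3 FPKM. The junction proteins Tjp1 (153 FPKM on average), Jup (21.8 FPKM) and Dsp (17.6 FPKM) were others, as was Krt14 (34.4 FPKM). The Krt14 model spans that of Krt19, so part of its reads could belong there. Krt8 was at 10.3, 10.4 and 10.3 FPKM, and its usual filament partner Krt18 at 0.260, 0.000 and 0.0495 FPKM.

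**Figure D2:**
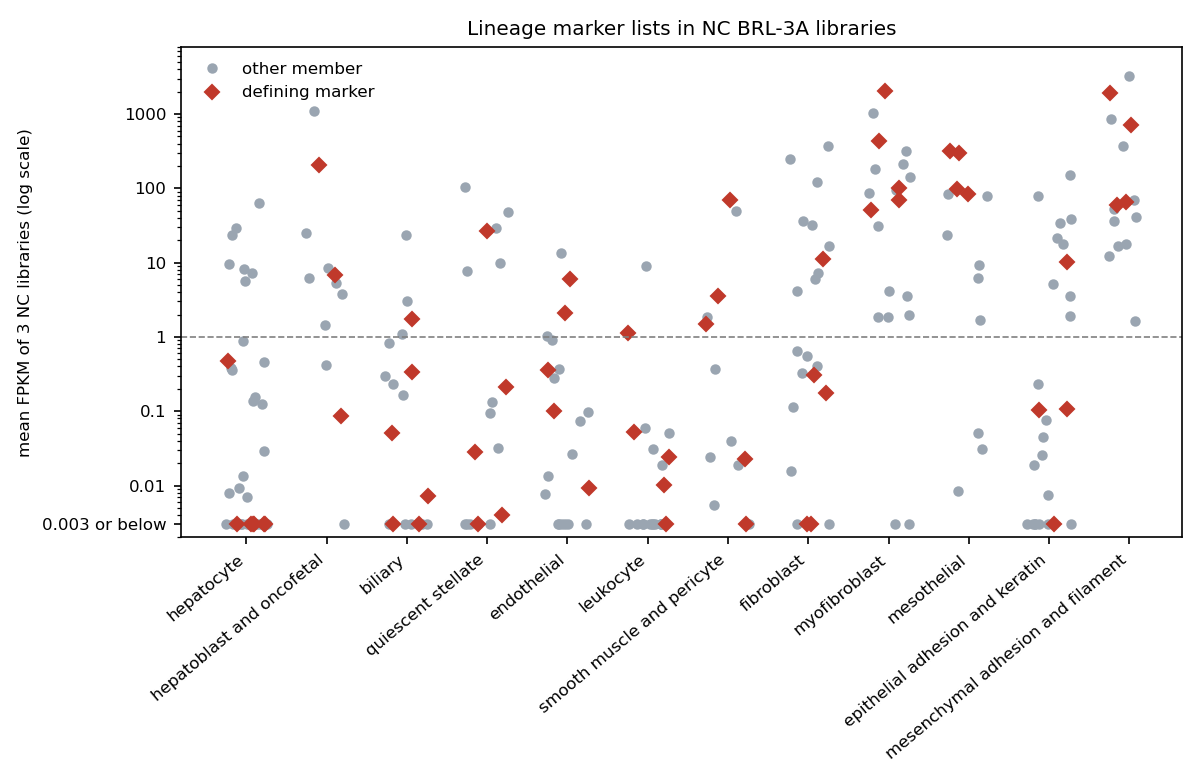
Each point is a gene of a marker list, with its mean FPKM over the 3 NC libraries on a log axis; red diamonds are defining markers, grey points the other members, the dashed line is 1 FPKM, and values of 0.003 or below are drawn at the bottom. The defining markers of the myofibroblast, mesothelial and mesenchymal lists all lie above the line, and those of the hepatocyte list all lie below it.

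The lists of functions that hepatocytes carry out for the body ranged from no gene detected, for bile acids, to 57.1% detected, for gluconeogenesis and glycogen, beside 53.2% of all nuclear gene models with a symbol. Of 14 genes of gluconeogenesis and glycogen 8 were detected, led by G6pc, Pygl (21.6 FPKM on average) and Pck2. Of 25 genes of amino acid breakdown 9 were detected. None of 12 bile acid genes was, and 3 of 23 genes of the apolipoprotein list were, led by clusterin (Clu) at 204, 199.8 and 202 FPKM, a chaperone secreted by many tissues. Apoe averaged 1.74 FPKM. Of 22 coagulation genes 4 were detected. They were tissue factor (F3) at 162, 173 and 157 FPKM, its inhibitor Tfpi at 76.5, 73.9 and 72.3 FPKM, Pros1 and F8, none of them confined to hepatocytes in the body. Of 31 complement genes 12 were detected, and the proteases of the first component were prominent. C1r was at 246, 271 and 243 FPKM and its partner C1s at 126, 129 and 120 FPKM. The other genes of that component, C1qa, C1qb and C1qc, were listed at 0. C3, on which the pathways converge, was at 601, 584 and 603 FPKM. C2 averaged 72.7 FPKM, with reads possibly shared with an overlapping model of the same symbol.

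Among acute phase genes 7 of 14 were detected. Lipocalin-2 (Lcn2), which binds bacterial siderophores, was at 309, 365 and 282 FPKM, ceruloplasmin (Cp) at 45.2, 49.97 and 40.4 FPKM and Lbp at 30.6, 36.3 and 31.4 FPKM. Of 19 genes in the list of P450 drug metabolism 4 were detected. The P450 genes among them were Cyp1b1, an extrahepatic form, at 64.9, 73.6 and 65.3 FPKM and Cyp2e1, and the others were the reductase Por (36.1 FPKM on average) and the cytochrome b5 gene Cyb5a (31.5 FPKM). Of 23 conjugating enzymes 13 were detected, or 56.5%. Mgst1, a microsomal glutathione transferase, was at 359, 348 and 360.1 FPKM and Gstp1, the pi-class transferase, at 216, 194 and 207 FPKM. Of 8 urea cycle genes 4 were detected, Arg1, Asl (9.16 FPKM), Slc25a13 (10.7 FPKM) and Slc25a15 (3.68 FPKM), so that the cycle was incomplete at the threshold used, with Cps1 listed at 0.

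Families of enzymes and carriers with a form best known from liver gave a more specific view. In 7 of 22 families the form listed first, meant as the liver form, was the most abundant by FPKM, and in 15 it was another. For acetyl-CoA carboxylase the form listed first was Acacb, and which form stands for liver there is open to choice. In glucose uptake and breakdown the form listed first led some families and not others. Pfkl led phosphofructokinase with 68.0% ± 0.98 (SD, n = 3) of the family's FPKM, and Ldha led lactate dehydrogenase with 95.9% ± 0.31. In glucose transport and at the pyruvate kinase step another form led. Slc2a1 was at 48.0, 50.9 and 49.2 FPKM and held 99.6% of the FPKM of its family, and Slc2a2 was listed at 0. Hk1 (37.0, 37.9 and 37.5 FPKM) and Hk2 (34.7, 38.9 and 33.5 FPKM) had overlapping ranges. Aldoa stood at 782, 704 and 726 FPKM, and Pkm at 516, 520.4 and 518 FPKM with a single count of Pklr in the 3 libraries. The symbol Pkm has 2 models, and the one used lies on chromosome 20 (18058245 to 18060661, Rnor_6.0). Reads may be shared between the models, so the level of Pkm is uncertain.

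Amino acid and lipid metabolism were divided as well. The forms best known from liver led with Arg1, at 77.5% ± 2.5 (SD, n = 3) of the arginase FPKM, and with Cpt1a, the gatekeeper of mitochondrial fatty acid oxidation, at 82.1% ± 1.2 of its family. In other families a form other than the first listed led. Mat2a held 99.8% of the methionine adenosyltransferase FPKM, Acaca 99.9% of the acetyl-CoA carboxylase FPKM and Fabp5 98.5% of the fatty acid binding protein FPKM. Pck2, the mitochondrial PEP carboxykinase, was at 21.2, 17.9 and 17.8 FPKM and the cytosolic Pck1 was listed at 0. Scd2 held 89.8% of the desaturase FPKM, although Scd1 was also well above the threshold at 112, 109 and 118 FPKM. G6pc held 81.3% ± 0.69 of the glucose-6-phosphatase FPKM, and Cox6a1, whose model overlaps Gatc, also led its family. Pygl and Pygb, the liver and brain forms of glycogen phosphorylase, held 51.8% ± 3.5 and 47.5% ± 3.3, and Pygb was below Pygl in 2 libraries and above it in replicate 3. The Pygb model overlaps Abhd12, so part of its reads could belong there and the order of the 2 forms is uncertain.

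**Figure D3:**
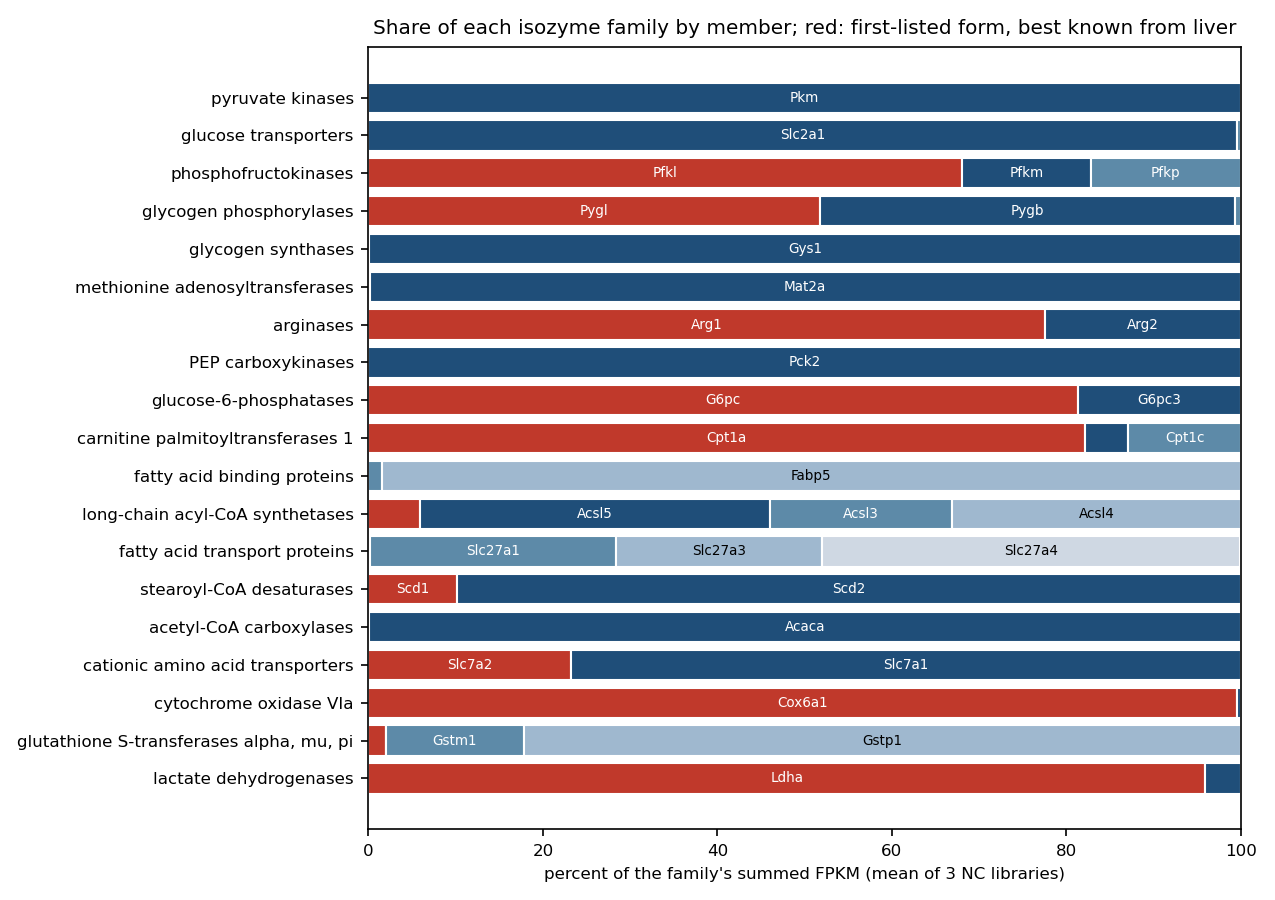
Stacked bars give the share of each gene in the summed FPKM of its family for 19 families (x axis, percent, mean of the 3 NC libraries). Red is the form listed first, meant as the liver form, and the other members follow in blue. For acetyl-CoA carboxylase the form listed first is Acacb, and which form stands for liver there is open to choice. Red fills most of the bar for G6pc, Cpt1a, Arg1, Pfkl, Cox6a1 and Ldha and is absent for Slc2a2, Pck1 and Fabp1.

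Of 367 transcription factor genes listed, 245 were detected, or 66.8%, beside 53.2% of all nuclear gene models with a symbol. Of these factors, 7 reached 100 FPKM in all libraries. Atf5 was the highest on average, at 199.5, 219 and 188 FPKM, and its range overlapped that of Atf4, which drives amino acid synthesis genes under stress, at 184, 193 and 177 FPKM. Creb3l1, a membrane-bound factor that is cleaved to activate secretory and collagen genes, was at 166, 184 and 176 FPKM. Irf7, an interferon-induced factor, was at 160.4, 164 and 125 FPKM, but its model overlaps Phrf1. Id3, which blocks helix-loop-helix factors, was at 155, 128 and 153 FPKM. Nfic averaged 132 FPKM, Nfe2l1 106 FPKM, Xbp1, the effector of the unfolded protein response, 99.6 FPKM and Nfe2l2, the regulator of antioxidant genes, 87.7 FPKM. These are levels of transcript, while Atf4, Xbp1, Creb3l1 and Nfe2l2 are known to be controlled in large part after transcription.

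Id1, a relative of Id3, was next at 87.0, 84.6 and 86.8 FPKM, and Wt1 followed, which is also in the mesothelial list. Stat3 averaged 77.8 FPKM, Jund 75.7 FPKM, Nfix 75.4 FPKM and Klf9 74.1 FPKM. The transcriptional arm of the Hippo pathway was represented by Tead1 (65.8 FPKM), Wwtr1 (61.3 FPKM) and Yap1 (43.3 FPKM). Of the 14 pairs of neighbours among the 15 highest factors, 10 had overlapping ranges.

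Of 25 hepatocyte and foregut factors 5 were detected. They were Xbp1, the highest of them, Gata4 at 52.7, 54.2 and 49.8 FPKM, Gata6 at 30.4, 27.5 and 31.7 FPKM, Foxa2, a pioneer factor of endoderm, at 8.22, 9.14 and 7.53 FPKM and Tbx3 at 3.84 FPKM on average. Hnf4a and Prox1 were listed at 0, Foxa1 averaged 0.316 FPKM and Cebpa 0.875 FPKM. Of 81 mesenchymal factors 42 were detected, or 51.9%, near the 53.2% of all nuclear gene models with a symbol. Wt1, at rank 821 of all genes, led them, and others were Zeb2 (41.5 FPKM), Hand2 (29.2 FPKM), Zeb1 (17.6 FPKM) and Twist1 (17.0 FPKM), while Tcf21 was listed at 0.

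Hox genes, which record position along the body axis, differed by cluster. In all 48.6% were detected, beside 53.2% of all nuclear gene models with a symbol. All 8 matched genes of the HoxA cluster were listed at 0 in all 3 libraries, with no count at all. The Hoxa5 and Hoxa11 symbols have 2 models each, the Hoxa6 model spans that of Hoxa7, and Hoxa13 lies on scaffold KL567939.1. Whether this affected the counting was not tested, so these genes are not shown to be silent. HoxC had 7 of 8 detected, HoxB 6 of 10 and HoxD 4 of 9. The highest were Hoxb9 at 31.7, 35.3 and 35.8 FPKM, Hoxc6 at 28.1, 27.6 and 27.7 FPKM, Hoxc8 at 18.6, 21.2 and 19.1 FPKM and Hoxd13 at 12.9, 10.9 and 11.9 FPKM. The ranges of Hoxb9 and Hoxc6 did not overlap, nor did those of Hoxc6 and Hoxc8 or of Hoxc8 and Hoxd13. Genes from the middle to the distal end of the clusters, such as Hoxc13 (9.47 FPKM) and Hoxc10 (8.31 FPKM), were present beside anterior ones such as Hoxb3 (5.44 FPKM).

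**Figure D4:**
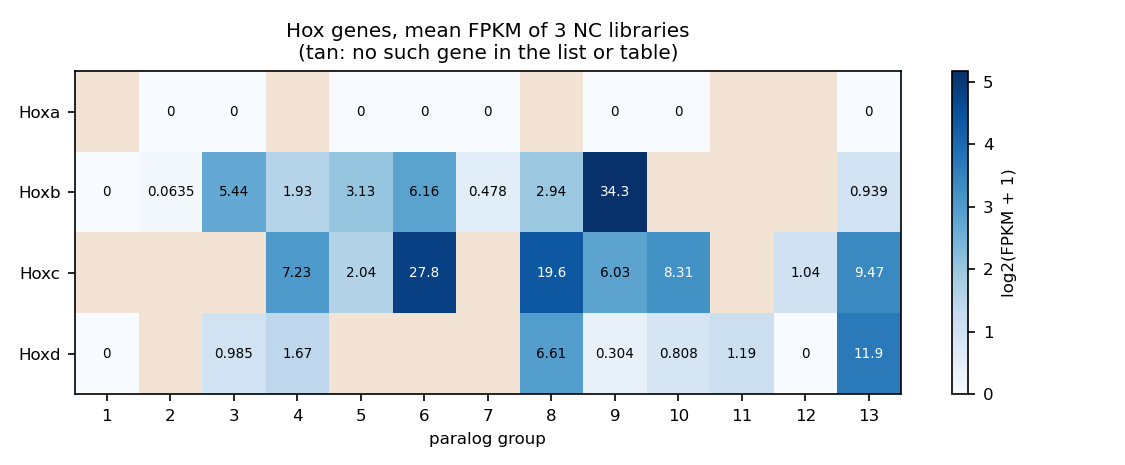
Rows are the Hox clusters and columns the paralog groups from 1 (anterior) to 13 (posterior); each cell gives the mean FPKM of the 3 NC libraries, with colour as log2(FPKM + 1) and tan where no gene of that name was in the list or matched. The Hoxa row is at 0 throughout, with the Hoxa11 model drawn in the place of Hoxa10, and the highest cells are Hoxb9 and Hoxc6.

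Receptors were mostly of low to moderate level. Of 376 receptor genes 172 were detected, or 45.7%, beside 53.2% of all nuclear gene models with a symbol. Of these receptors, 7 reached 100 FPKM in all libraries. The integrin subunit Itgb1, which pairs with many alpha chains to bind collagen and fibronectin, led at 387, 356 and 374 FPKM and its lowest value was above the highest of the next receptor. Its partners Itgav, Itga5 and Itga3 averaged 74.5, 52.6 and 35.6 FPKM. Ryk, a Wnt-binding pseudokinase receptor, was at 191, 176 and 188 FPKM. Il6st, the signalling subunit shared by the interleukin-6 family, was at 164, 182 and 166 FPKM, with Osmr at 44.0 FPKM, Lifr at 4.28 FPKM and Il6r at 2.50 FPKM on average, an uneven set of partners.

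The remaining high receptors covered uptake, guidance and inflammation. Lrp1, the broad clearance receptor, averaged 131 FPKM, Ackr3, a scavenging chemokine receptor, 129 FPKM, Unc5b, a netrin receptor, 116 FPKM and Tnfrsf1a, the main receptor of tumour necrosis factor, 107 FPKM. Axl, a receptor for Gas6, was at 96.3, 94.8 and 94.0 FPKM, and its ligand Gas6 at 150, 128 and 151 FPKM. Ddr2, a collagen receptor, averaged 85.0 FPKM, Il1r1 85.1 FPKM and Tgfbr2, a receptor of transforming growth factor beta, 69.8 FPKM. Among receptor tyrosine kinases 27 of 55 were detected, or 49.1%, near the 53.2% of all nuclear gene models with a symbol. They included Egfr at 23.7 FPKM and Met, the hepatocyte growth factor receptor, at 19.4 FPKM on average. Fgfr2 was uneven, at 29.4, 30.3 and 15.5 FPKM, lowest in replicate 3.

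Of 48 nuclear receptors 20 were detected, or 41.7%, beside 53.2% of all nuclear gene models with a symbol. The highest were the glucocorticoid receptor Nr3c1 at 29.6, 32.8 and 27.8 FPKM, Nr1h2 at 25.5 FPKM and Rara at 22.9 FPKM. The receptors that sense bile acids, xenobiotics and fatty acids in hepatocytes were below the threshold: Nr1h4 averaged 0.00783 FPKM, Nr1i2 0.00968 FPKM and Ppara 0.305 FPKM, and Nr1i3 was listed at 0. Of 98 G protein-coupled receptors 22 were detected, or 22.4%, with Gprc5a (34.6 FPKM), the thrombin receptor F2r (29.3 FPKM) and S1pr2 (22.2 FPKM) after Ackr3. Asgr1, the hepatocyte receptor for asialoglycoproteins, averaged 0.139 FPKM and Gcgr, the glucagon receptor, 0.0128 FPKM.

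Secreted products, a group that overlaps the matrix list, included many of the most abundant transcripts. The lists of this group also hold proteins placed elsewhere, such as Serpinh1 of the endoplasmic reticulum, the lysosomal Ctsd and Ctsb and the membrane collagenase Mmp14. The counts and shares of the group therefore cover more than secreted proteins. Of 467 genes 228 were detected, or 48.8%, beside 53.2% of all nuclear gene models with a symbol. Of the secreted genes, 53 reached 100 FPKM in all libraries, and the 467 together took 7.21% of the FPKM sum. Basement membrane components stood beside the fibrillar matrix. Col4a1 was at 668, 648 and 659 FPKM and Col4a2, its partner chain, at 420, 391 and 405 FPKM. The laminin chain Lamc1 averaged 150 FPKM, Lamb1 83.4 FPKM and perlecan (Hspg2) 133 FPKM. Of 42 collagens 17 were detected.

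In the insulin-like growth factor system, levels ranged widely among ligands, binding proteins and receptors alike. Igf2 (ENSRNOG00000020369, chromosome 1, 215828102 to 215846911, Rnor_6.0) averaged 1094 FPKM ± 85.9 (SD, n = 3), and Igfbp2, one of the proteins that carry it, was at 593, 541 and 622 FPKM. The 2 genes had the same order of libraries, with replicate 3 highest and replicate 2 lowest. Igfbp7, whose model overlaps Polr2b, averaged 253 FPKM, Igfbp4 57.9 FPKM and Igfbp6 34.3 FPKM, while Igfbp3 averaged 0.351 FPKM. Igf2r, which takes up IGF2 for degradation, was at 64.1, 62.1 and 64.5 FPKM. Igf1r, the signalling receptor, was at 13.6, 14.1 and 13.3 FPKM, Insr averaged 3.06 FPKM and Igf1 3.29 FPKM.

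Igf2 is imprinted, and other imprinted genes were at very different levels. Of 26 matched imprinted genes 12 were detected, or 46.2%, beside 53.2% of all nuclear gene models with a symbol. Plagl1, a zinc finger growth regulator, was second at 550.4, 552 and 576 FPKM, followed by Grb10, an adaptor of insulin and IGF receptors, at 94.1, 92.0 and 96.7 FPKM and Gnas at 68.6 FPKM on average. Dlk1 averaged 6.91 FPKM, Cdkn1c 0.751 FPKM and Rtl1 0.0141 FPKM, and Mest was listed at 0. H19 was not analysed here.

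Of 73 chemokine and cytokine genes 33 were detected, or 45.2%, beside 53.2% of all nuclear gene models with a symbol. Cxcl1, a neutrophil attractant, averaged 877 FPKM, and Ccl2, a monocyte attractant, was at 780.3, 861 and 701 FPKM. Cxcl10, an interferon-induced attractant of T cells, was at 227, 249 and 183 FPKM and Csf1, the macrophage growth factor, at 113, 139 and 118 FPKM. Ccl7 and Ccl20 averaged 65.7 and 64.4 FPKM. In all of Ccl2, Cxcl10 and Csf1 replicate 2 was highest. Il6 was below the threshold at 0.749, 0.930 and 0.584 FPKM.

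Growth factors, proteases and inhibitors completed the secreted set. Sema3c, a guidance ligand, was at 283, 282 and 284 FPKM, and Bmp6, which in liver is known for inducing hepcidin, at 106, 105 and 105 FPKM. The 3 transforming growth factor betas were all detected, with Tgfb1 and Tgfb3 at 65.2 and 64.7 FPKM on average and ranges that overlapped, and Tgfb2 at 39.2 FPKM. Vegfa averaged 65.2 FPKM, whereas Hgf, the ligand of Met, averaged 0.0951 FPKM. The lysosomal proteases Ctsd and Ctsb averaged 444 and 434 FPKM, and the membrane collagenase Mmp14 was at 149, 157 and 142 FPKM, while gelatinase Mmp2 averaged 0.502 FPKM. The metalloproteinase inhibitors Timp2 and Timp1 stood at 372, 366 and 367 FPKM and at 183 FPKM on average.

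**Figure D5:**
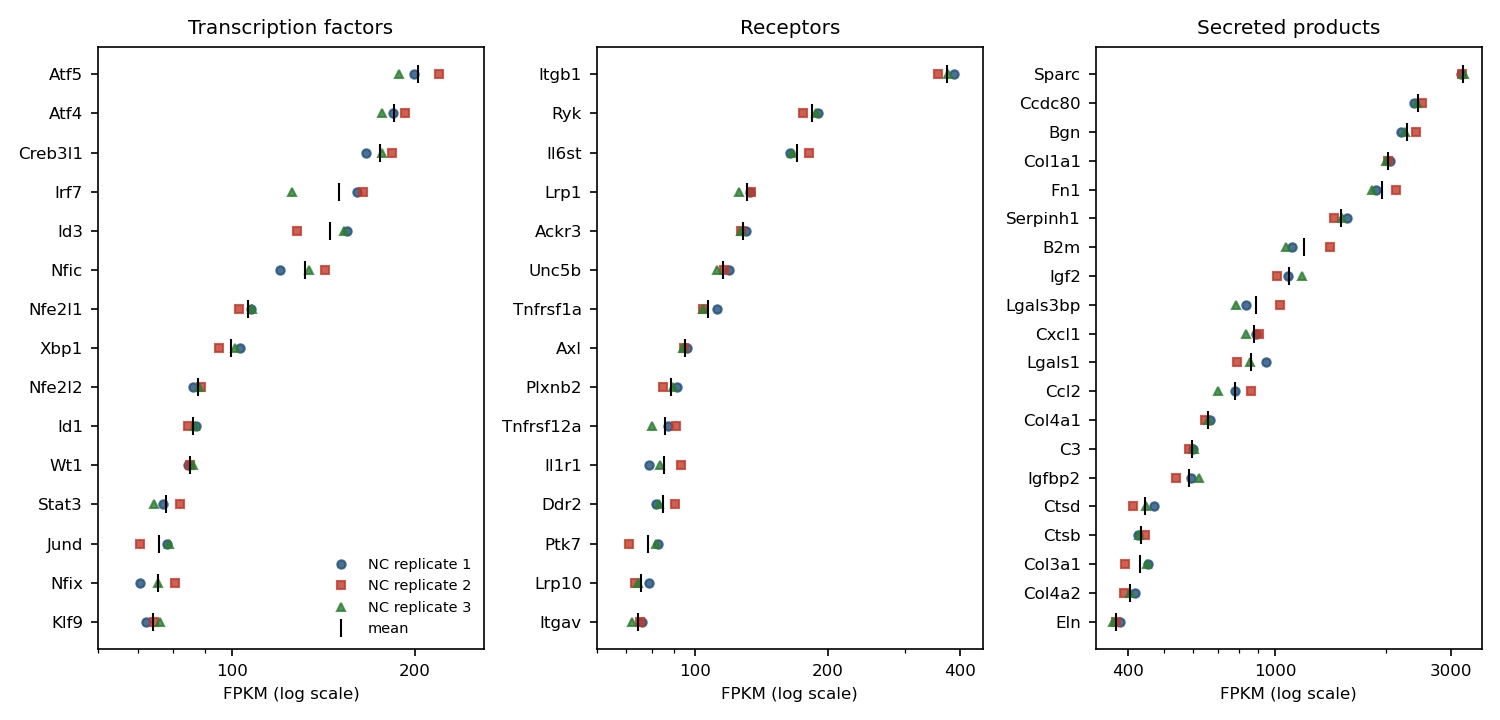
The 15 most abundant transcription factors, 15 receptors and 20 genes of the secreted lists, with FPKM on log x axes. Symbols are the 3 NC libraries and the vertical tick their mean. Itgb1 and Sparc stand apart from the next gene in their panels, and B2m, Lgals3bp, Fn1 and Ccl2 are highest in replicate 2.

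Genes of division were expressed throughout. All 53 matched genes of the replication and mitosis list were detected, beside 53.2% of all nuclear gene models with a symbol. Prc1 (110 FPKM), Rrm1 (108 FPKM) and Mki67, the proliferation marker (106 FPKM), were the highest on average. Cdk4, the kinase that starts the cycle with D-type cyclins, was at 282, 259 and 276 FPKM, although its model overlaps Tspan31. The inhibitor Cdkn1b was at 118, 129 and 123 FPKM, higher than Cdkn1a at 16.3 FPKM on average. Among cyclins, Ccnd3 averaged 66.0 FPKM, Ccnd2 27.8 FPKM and Ccnd1 21.9 FPKM. Cdkn2a was at 3.67, 3.75 and 3.88 FPKM and Rb1 at 6.47 FPKM on average, with reads possibly shared with Lpar6.

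The libraries differed from each other in a small number of genes. Of the 7775 genes of at least 5 FPKM, 154 had a coefficient of variation above 20%, or 1.98%. The most variable was Vps25, a subunit of the ESCRT-II sorting complex, with 81, 57 and 635 counts. An overlapping model named Rn60_10_0890.5 moved the other way, with 542, 519 and 1 counts, so that the pair together had a similar number of counts in each library. Dse, which converts glucuronic to iduronic acid in dermatan sulfate, had 489, 382 and 1454 counts, and Lmo4, a LIM-domain cofactor, 280, 282 and 922 counts, with no overlapping model. Both were highest in replicate 3. Fto, an RNA demethylase, had 679, 1682 and 1734 counts and was lowest in replicate 1. Dcakd (759, 1784 and 647 counts), Plet1 (296, 566 and 275) and Mmp3, a stromelysin (133, 254 and 148), were highest in replicate 2. Taf9, whose model overlaps Ak6, Mxd4 and RT1-T24-3 completed the 10 most variable genes, of which 6 were highest in replicate 2, 3 in replicate 3 and 1 in replicate 1.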

How the data were processed

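Per the labels' protocols, total RNA was purified, treated with DNase and made into Illumina libraries. HISAT2 2.0.4, StringTie 1.3.0, edgeR and the build Rnor_6.0 are named, without roles, per the submitters' processing notes. Counts are whole reads for each gene and library, not normalized, as the authors deposited them. The deposited FPKM column can be rebuilt within 0.034% from the count, 1 length for every gene and the library total. How reads were counted, with which strand setting and with what rule for multiple matches is not given in these sources, and reads of overlapping or near-identical genes may have gone to either. A gene is described as overlapping where another model at the same position held more than 0.1 times its counts.

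Levels are the deposited FPKM values of the NC columns, and 0 columns of per-sample values were left unmapped. Members of the 86 gene lists were matched by symbol or by older and newer names in the RefSeq table (GRCr8): of 2427 entries, 2333 matched, 68 did not and 26 repeated a gene of their list. Promoter sequences are from RefSeq on the same build. Where a symbol had several models, the one with most counts was used. The members and lists were chosen with earlier results of these data known. Named genes were taken from the 30 most abundant genes, the 15 highest transcription factors and receptors, the 20 highest secreted products, defining markers, up to 4 leading members of a list, isozymes and the 10 most variable genes; others were named after their values were seen. No test was made, since 1 group was described. The spread was estimated with edgeR 4.0.16 in R 4.3.3 (intercept only, trimmed mean of M-values, filterByExpr with a minimum count of 10) and checked on simulated data. Alternatives were other thresholds, counts in place of FPKM, totals without mitochondrial genes, other scalings and leaving out each library. Some genes are not reported here.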

Additional observations from a re-analysis of the deposited data

How the results depend on the processing

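Depth limits what can be said of genes near the threshold. With 10 FPKM as the threshold, 6081 genes were detected, with 3 hepatocyte genes, 151 transcription factors, 87 receptors and 132 secreted products. With 0.1 FPKM, 11 hepatocyte genes were. The mesothelial count of 10 was 7 at 10 FPKM and unchanged under every other threshold tried. On counts in place of FPKM, 691 genes made up 50% of the total, against 385 on average, the 10 most abundant took 9.60% and the 100 most abundant 25.8%. On counts the shares were 1.53% for ribosomal proteins, 7.79% for the matrix list and 6.37% for the mitochondrial genome. Without mitochondrial genes, 713 genes made up 50%, the 10 and 100 most abundant took 5.50% and 22.3%, and ribosomal and matrix shares were 5.11% and 4.47%. Ribosomal proteins by description, an alternative chosen after seeing the data, took 7.55%. The most abundant isozyme was the same by counts in 19 of 22 families; hexokinases, glycogen phosphorylases and acyl-CoA synthetases were the exceptions. Leaving out each library in turn moved none of 369 values recomputed beyond the limit set for it: genes detected ranged from 11183 to 11213, and the coefficient of variation from 0.0535 to 0.0749. No paired analysis was possible because a single group was described and no comparison was made.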

Other observations

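The Y chromosome held 26 models in the table, of which 1 had a count and none was detected in the NC libraries. Telomerase genes were at or near 0, with Tert at 0.0421, 0.0443 and 0.000 FPKM.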
